A study of Mus musculus with 10 samples.

Results

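Right ventricular RNA signals were examined for 36 genes that carry long-chain fatty acids into heart muscle cells and oxidise them. The genes were a given list of symbols that covers the steps of the pathway, and each was matched by symbol to the probe sets of an Affymetrix mouse array, where a probe set is a group of oligonucleotides that reads 1 transcript region. Of the 36 symbols, 33 had at least 1 probe set of their own, which together made 56 of the 22690 probe sets and 33 of the 12393 genes on the array. Acsl1 and Acsl3 were not matched, and Cpt1b was matched only by a probe set that also carries the symbols Gm44502 and Chkb. That probe set and the remaining 2 of the 3 shared ones, which carry both Acaa1a and Acaa1b, were not used.

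The mice were of strain 129SV, and the wildtype animals were littermates of mice with 1 intact copy of plakoglobin, written plakoglobin (+/-). Plakoglobin (gene Jup) is a protein of the junctions that couple heart muscle cells. The groups were 4 trained wildtype mice, 4 trained plakoglobin (+/-) mice, 1 untrained wildtype mouse and 1 untrained plakoglobin (+/-) mouse, with 1 array per mouse. Trained mice swam in water of 35 °C on 6 occasions a week, for 5 min at first and 90 min at the end. The trained mice were 6 months old, with 2 animals of each sex per genotype, while the untrained animals were both female and 10 months old. Training and age therefore cannot be told apart, and a value of an untrained group has no replicate. The sources used here do not say how the plakoglobin allele was made.

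Long-chain fatty acids enter the myocyte with the help of membrane transporters and a soluble binding protein, are linked to coenzyme A, and cross into mitochondria as carnitine esters. There, beta-oxidation shortens them by a repeated cycle of oxidation, hydration, second oxidation and thiolysis, and the electrons pass to the respiratory chain. The adult heart draws most of its energy from this route. Many of the genes are regulated by the nuclear receptors PPAR and ERR, which bind DNA elements built on the letters AGGTCA.

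All 10 arrays were comparable in their median signal, 898 to 1149.6, and signals of the 7 ventricular cardiomyocyte markers were high on all of them, with sums of 1459550 to 2128440. The 6 skeletal muscle markers were all too dim to be tested, and so was the defining brown fat marker Ucp1, at 82.0 to 209.5. The white fat marker Adipoq was also too dim, at 77 and 62.5 in untrained and 39.5 to 714.6 in trained mice. Of the 4 white fat markers on the array, 3 were too dim to test. The 4 summed to 988.6 to 1704.2 in untrained and 1735.2 to 3071.3 in trained mice, without overlap. Their part in the training differences was not tested. Of the fat markers bright enough to test, Elovl3, Dio2 and Retn differed by 0.07, 0.25 and 0.20 on the log2 scale between trained and untrained mice. Cidea, a lipid droplet protein of brown fat, read 4982 and 4110.5 in untrained and 1558 to 3673 in trained mice, without overlap (-0.74, SE 0.33, unadjusted p = 0.0467, adjusted p = 0.566, limma), and its part in the training differences was not tested. Jup itself read 1991.7 to 3519.9 in the trained mice labelled plakoglobin (+/-) and 2928.3 to 4322.0 in trained wildtype mice. The log2 difference was -0.53 (SE 0.24, unadjusted p = 0.0485, adjusted p = 0.99996, limma). These ranges overlap, so the Jup signal did not separate the trained groups mouse by mouse. Without training, Jup read 3156.9 in the mouse labelled plakoglobin (+/-) and 2386.8 in the wildtype mouse, so wildtype was the lower there. For GAPDH, a control read at both ends of its transcript, the 3'-end signal was divided by the 5'-end signal, a ratio that rises when RNA or its copies are shortened. It reached 17.8 on the array of trained wildtype replicate 2, while trained plakoglobin (+/-) replicate 1 had 2.98 and trained wildtype replicate 1 had 2.50. The other 7 arrays had 0.849 to 1.02. Several results are also given without these 3 arrays.

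The probe sets of 32 genes, 50 of the 56, were bright enough to be tested, which meant a mean log2 signal equal to a signal of at least 661. The 6 not tested were Ehhadh, a peroxisomal bifunctional enzyme whose only probe set read 356.0 to 965.1 on the 10 arrays, and further probe sets of Acsl4, Cpt1a and Acad8. Where a gene had several probe sets, the brightest represents it, and signals of different probe sets are not compared with each other.

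The first comparison asked how trained and untrained hearts differed. None of the 50 probe sets of fatty acid oxidation genes passed the threshold of 0.05 on the adjusted p (limma, two-sided, Benjamini-Hochberg over all 13576 probe sets tested), against 85 of all probe sets, 0.626%. That count of 85 was 10 when the untrained plakoglobin (+/-) mouse was left out and 34 when the untrained wildtype was. By representing probe sets, 21 of 32 genes had a lower estimate in trained mice, with a median log2 difference of -0.14, while 49.9% of all 8365 genes tested had a lower estimate, with a median of 0.00089. The median was -0.04 without the untrained plakoglobin (+/-) mouse, with 19 of 32 lower, and it was -0.05 when all 50 probe sets were counted, of which 54% were lower. Because both untrained mice were female and sex was a term of the model, each estimate equals that of the 4 trained females against the 2 untrained females, and the males add only to the error.

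**Figure D1:**
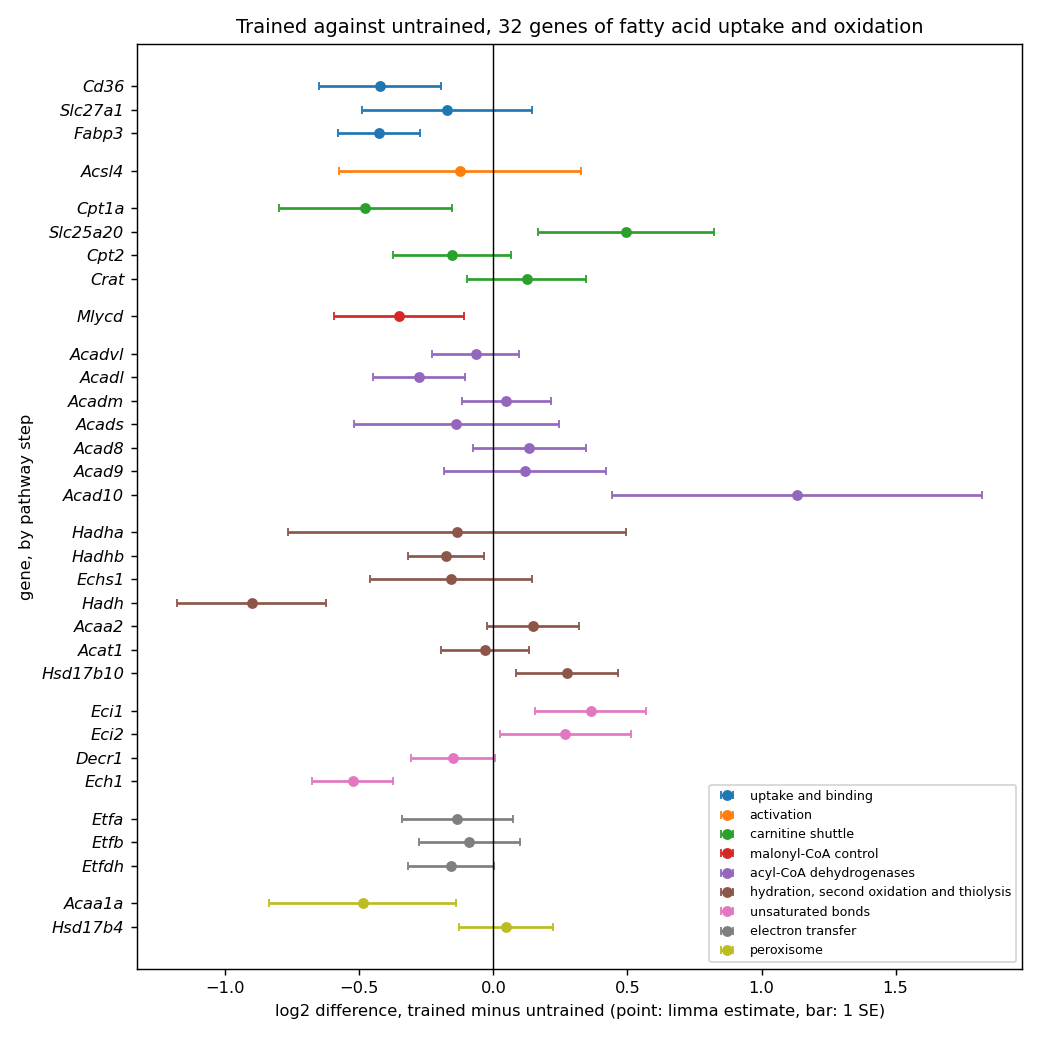
Log2 difference between trained and untrained mice for each of the 32 tested genes, 1 row per gene in the order of the pathway, with the limma estimate as a point and 1 SE as a bar. Hadh has the estimate farthest below 0, genes such as Ech1, Fabp3, Cpt1a and Acadl also lie below 0 by more than 1 SE, Acad10 has the largest positive estimate with an SE of 0.69, and no gene passed the adjusted threshold.

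Without adjustment, 4 of the 50 probe sets had p below 0.05 and lower signals in trained mice, read by Ech1, Fabp3 and 2 of the 3 probe sets of Hadh, against 3.73% of all probe sets. A further probe set of Hsd17b4 was the 1 with higher signals, against 4.94% of all. At 5 of the 50 probe sets, those of Fabp3, Ech1, Hadh, Hadhb and Decr1, the 8 trained signals were all lower than the 2 untrained ones, which held for 4.61% of all probe sets. At 1, a further probe set of Acat1, all 8 lay above, which held for 4.63% of all. As shares of the 50, these counts were 8% and 2% by unadjusted p, and 10% and 2% by lack of overlap.

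At uptake, all 3 tested genes had lower estimates in trained mice. Fabp3, the fatty acid binding protein of heart muscle cytosol, read 199400 in the untrained wildtype mouse and 221336 in the untrained plakoglobin (+/-) mouse. In the 8 trained mice it ranged from 138846 to 172387 with a median of 157908. The groups did not overlap, and the lowest untrained mouse stood above the highest trained mouse. The log2 difference was -0.43 (SE 0.15, unadjusted p = 0.0175, adjusted p = 0.409, limma), and it was -0.23 when arrays were quantile normalized.

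Cd36, the sarcolemmal fatty acid translocase, read 71398 and 69058 in the untrained mice and 41073 to 76030 in the trained mice by its brightest probe set, so the groups overlapped. Its log2 difference was -0.42 (SE 0.23), while its further probe sets gave -0.22 and 0.37. Slc27a1, a fatty acid transport protein with acyl-CoA synthetase activity, had a log2 difference of -0.17 (SE 0.32) that turned to 0.10 without the untrained plakoglobin (+/-) mouse. Acsl4, the only acyl-CoA synthetase of the list that was measured, differed by -0.13 (SE 0.45).

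The carnitine shuttle went both ways. Cpt1a, an outer membrane palmitoyltransferase, had a log2 difference of -0.48 (SE 0.32). Cpt1b, which had no probe set of its own, gave no value. Slc25a20, the carrier that exchanges acylcarnitine for carnitine across the inner membrane, had one of 0.50 (SE 0.33). Trained wildtype replicate 1, an array with a high GAPDH ratio, gave the highest Slc25a20 signal, 28908, against 9115 to 16031 on the other 9 arrays, and the difference was 0.51 without the 3 arrays. It was 0.17 without the untrained wildtype and 0.82 without the untrained plakoglobin (+/-) mouse. Cpt2, which rebuilds acyl-CoA inside the mitochondrion, differed by -0.15 (SE 0.22), and Crat, which moves acetyl and short acyl groups onto carnitine, by 0.12 (SE 0.22). Mlycd, which degrades malonyl-CoA, the inhibitor of the outer palmitoyltransferase, differed by -0.35 (SE 0.24), by -0.62 without the untrained wildtype mouse and by -0.088 without the untrained plakoglobin (+/-) mouse.

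Of the 7 acyl-CoA dehydrogenases, which catalyse the first oxidation and are divided by chain length or substrate, 3 had lower and 4 had higher estimates. The very long-chain enzyme Acadvl differed by -0.07, the long-chain enzyme Acadl by -0.28 (SE 0.17), the medium-chain enzyme Acadm by 0.05 and the short-chain enzyme Acads by -0.14. Acad8, which acts in valine breakdown, differed by 0.13. Acad9, which also assembles respiratory complex I, differed by 0.12, and by -0.12 without the 3 arrays of high GAPDH ratio. Acad10, a less studied family member, had a log2 difference of 1.13 with an SE of 0.69, and its trained signals ran from 431.0 to 2817.8 around untrained values of 1223 and 431.1.

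Among the enzymes of hydration, second oxidation and thiolysis, Hadh had the largest estimate of all 32 genes below 0. Hadh is the short-chain 3-hydroxyacyl-CoA dehydrogenase of the matrix. Its brightest probe set read 131107 and 143695 in the untrained mice, and 58006 to 130849 in the trained mice with a median of 79416. No trained mouse reached an untrained one, but trained wildtype replicate 3 lay just under the lower of them.

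The log2 difference of Hadh was -0.90 (SE 0.28, unadjusted p = 0.00761, adjusted p = 0.299, limma). The probe set of intermediate brightness, which read 61860 and 55940 in the untrained mice and 21782 to 60161 in the trained mice, gave -0.94 (SE 0.35, unadjusted p = 0.0210, adjusted p = 0.430), and there trained wildtype replicate 3 lay between the untrained values. The dimmest probe set gave -0.44 (SE 0.46). In females alone the adjusted p of the brightest was 0.0691, the lowest that any of these genes reached in any alternative.

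The trifunctional protein joins the last steps for long chains in 1 complex of alpha subunits (Hadha) and beta subunits (Hadhb). Hadhb read 147479 and 162226 in the untrained mice and 122494 to 145824 in the trained mice. The groups did not overlap, yet the gap between them was small, and the log2 difference was -0.18 (SE 0.14, unadjusted p = 0.235) and -0.0043 after quantile normalization. Its further probe set gave 0.27. Hadha differed by -0.14 with an SE of 0.63, and by -0.77 when sex was not a term of the model.

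Echs1, the short-chain enoyl-CoA hydratase, differed by -0.16 (SE 0.30). The mitochondrial thiolase Acaa2 differed by 0.15 (SE 0.17) and the acetoacetyl-CoA thiolase Acat1 by -0.03 (SE 0.16). The Acat1 probe set of intermediate brightness read 20736 and 19543 in the untrained mice and 22008 to 41970 in the trained mice, with no overlap, and its log2 difference was 0.42 (SE 0.23, unadjusted p = 0.0997). The highest trained values of that probe set were 37533 and 41970, from trained wildtype replicate 1 and trained plakoglobin (+/-) replicate 1, 2 of the 3 arrays of high GAPDH ratio. Hsd17b10, a dehydrogenase of branched-chain and short-chain substrates, differed by 0.27 (SE 0.19).

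Unsaturated fatty acids need auxiliary enzymes that move or remove double bonds, and Ech1, a dienoyl-CoA isomerase of this kind, had the lowest p of the 32 genes. It read 177633 and 190268 in the untrained mice and 109806 to 140302 in the trained mice with a median of 129904. Every trained mouse lay well below both untrained mice. The log2 difference was -0.52 (SE 0.15, unadjusted p = 0.00531, adjusted p = 0.256, limma), -0.57 without the 3 arrays of high GAPDH ratio and -0.30 after quantile normalization.

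Decr1, the mitochondrial dienoyl-CoA reductase, read 41969 and 44671 in the untrained mice and 27022 to 41580.5 in the trained mice, again without overlap. Its log2 difference was only -0.15 (SE 0.16), because trained females, the group that sets the estimate, read 37150 to 41580.5. The further probe set of Decr1 gave -0.16 (SE 0.19). There 1 trained mouse, at 13773, lay above both untrained mice, at 11975 and 13161. The enoyl-CoA isomerases Eci1 and Eci2 had estimates of 0.36 (SE 0.21) and 0.27 (SE 0.25).

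**Figure D2:**
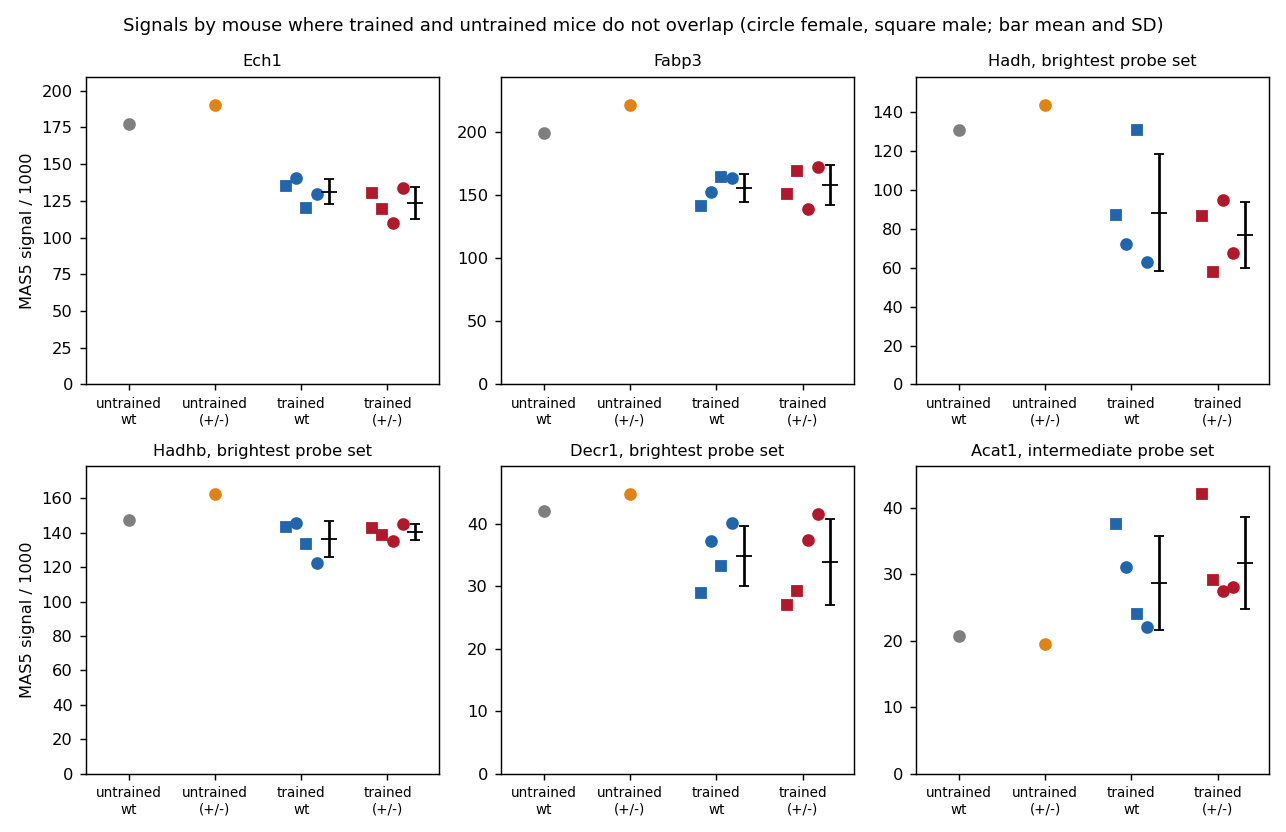
Signals of each mouse (MAS5 signal divided by 1000), by group, for the 5 probe sets whose trained signals were all lower than the untrained ones and the 1 of Acat1 whose trained signals were all higher; circles are females, squares males, and black bars the mean and SD of the 4 mice of a trained group. The gap is widest for Ech1, with 140302 as the highest trained and 177633 as the lowest untrained signal, and for Hadh a single trained wildtype male reaches 130849.

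Electron transfer flavoprotein takes electrons from the dehydrogenases and hands them to a membrane oxidoreductase. Its subunits Etfa and Etfb differed by -0.13 (SE 0.21) and -0.09 (SE 0.19), and the oxidoreductase Etfdh by -0.16 (SE 0.16), so all 3 estimates were below 0 and none exceeded its SE. In the peroxisomal branch, which shortens very long chains, the thiolase Acaa1a differed by -0.49 (SE 0.35) and by 0.14 without the untrained plakoglobin (+/-) mouse. The multifunctional enzyme Hsd17b4 differed by 0.05 (SE 0.18) by its brightest probe set. Its further probe set read 5639 and 3364 in the untrained mice and 4414.5 to 8658.0 in the trained mice, which overlap, with a log2 difference of 0.61 (SE 0.27, unadjusted p = 0.0465, adjusted p = 0.566, limma). That difference was 0.32 with the untrained plakoglobin (+/-) mouse left out and 0.90 with the untrained wildtype left out.

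Of the 14 genes with several tested probe sets, 6 had estimates of 1 sign at all of them in the training comparison, namely Hadh, Decr1, Acaa2, Hsd17b10, Hsd17b4 and Slc25a20. At Cd36, Cpt2, Crat, Acadl, Acad9, Hadhb, Acat1 and Acaa1a the probe sets differed in sign. Which transcripts each probe set reads was not tested.

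Between mice, the untrained plakoglobin (+/-) mouse gave the highest of the 10 signals at 11 of the 32 genes, 34.4%, whereas it did so at 10.4% of all genes. The untrained wildtype mouse was highest at 1 of 32. Of the 7 ventricular cardiomyocyte markers all 7 had lower estimates in trained mice, with a median log2 difference of -0.13, and their summed signal was 1865830 to 2128440 in untrained and 1459550 to 1913040 in trained mice. The summed signal of the 7 leukocyte markers was 15369 to 17241 in untrained and 7490.4 to 15373 in trained mice, and 5 of the 6 tested had lower estimates, with a median of -0.99. Of the 4 fibroblast markers 3 had lower estimates, with a median of -0.45, and the largest was that of Col3a1 (-1.05, SE 0.31, unadjusted p = 0.00547, adjusted p = 0.257, limma). Their summed signal was 86660 to 90125 in untrained mice, 64054 to 83926 in trained females and 78689.5 to 101204 in males. Of the 5 endothelium markers 4 had lower estimates, with a median of -0.06, and Kdr had -1.03 (SE 0.29, unadjusted p = 0.00417, adjusted p = 0.228, limma). Those 5 summed to 19124 to 22459 in untrained and 16948 to 23463 in trained mice. The lowest p of the markers was that of the leukocyte marker Adgre1 (-0.90, SE 0.23, unadjusted p = 0.00249, adjusted p = 0.173, limma). None of these markers passed. The part of these markers in the differences above was not tested, and in whole tissue fewer cells of a type and less RNA per cell cannot be told apart.

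A list of 24 other genes of fatty acid handling and ketone use was set beside the 32. Of its 20 tested genes, 12 had lower estimates in trained mice, with a median of -0.15, and none passed by its representing probe set. The lowest p values were those of Bdh1, which converts ketone bodies, and Acsl6, an acyl-CoA synthetase. Bdh1 read 17478 and 17156 in the untrained mice and 3916.0 to 11542 in the trained mice, with no overlap and a log2 difference of -1.48 (SE 0.33, unadjusted p = 0.000839, adjusted p = 0.0942, limma). It passed in females alone, without trained wildtype replicate 3 and without the 3 arrays of high GAPDH ratio (adjusted p = 0.0337, 0.0422 and 0.00578, limma). Without the untrained wildtype or the untrained plakoglobin (+/-) mouse its adjusted p was 0.552 and 0.413. Acsl6 differed by -0.86 (SE 0.25, adjusted p = 0.264).

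Of 25 regulators and their known targets, 20 were tested and 13 had lower estimates, with a median of -0.19. Angptl4, an inhibitor of lipoprotein lipase, differed by -1.88 (SE 0.53, adjusted p = 0.238), and Ucp3, a carrier of the inner mitochondrial membrane, by -1.13 (SE 0.34, adjusted p = 0.282), which did pass when the 3 arrays of high GAPDH ratio were dropped (-1.18, adjusted p = 0.0173, limma). A further probe set of Ucp3 was the only 1 of either list to pass with all 10 arrays: it read 3697.9 and 2986.4 in the untrained mice and 262.5 to 1050.1 in the trained mice, and fell by 3.38 on the log2 scale (SE 0.45, adjusted p = 0.00633, limma).

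The comparison of genotypes asked whether trained plakoglobin (+/-) mice differed from trained wildtype mice. None of the 50 probe sets passed, and 0 of all 13576 did, 0%, with 2.01% of all probe sets at an unadjusted p below 0.05 (limma). By representing probe sets, 21 of 32 genes had lower estimates in plakoglobin (+/-) mice, with a median log2 difference of -0.06, against 48.8% lower and a median of 0.0052 over all genes. Without trained wildtype replicate 2, the array with the highest GAPDH ratio, 15 of 32 were lower and the median was 0.0021. Without trained plakoglobin (+/-) replicate 3 it was -0.0013, with 16 of 32 lower.

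Of the 50 probe sets, 2 had an unadjusted p below 0.05, 1 of Acaa2 and 1 of Cpt1a. The Acaa2 probe set of intermediate brightness read 61208, 75015, 53505 and 68382 in trained wildtype mice and 43226, 37793.5, 43552 and 44784 in trained plakoglobin (+/-) mice. All 4 wildtype mice lay above all 4 plakoglobin (+/-) mice, and the untrained mice, at 39652 for wildtype and 44242.5 for plakoglobin (+/-), lay at the level of the latter.

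The log2 difference at this Acaa2 probe set was -0.60 (SE 0.13, unadjusted p = 0.00105, adjusted p = 0.99996, limma). It ranged from -0.66 to -0.55 with 1 mouse left out and was -0.58 when the 3 arrays of high GAPDH ratio were dropped. The brightest Acaa2 probe set gave -0.12 (SE 0.14) and the dimmest -0.07 (SE 0.51), and both overlapped between genotypes. The estimate was thus below 0 at all 3 Acaa2 probe sets, while the genotypes were apart without overlap at only 1 of them. All 7 ventricular cardiomyocyte and all 4 fibroblast markers had lower estimates in plakoglobin (+/-) mice, with medians of -0.13 and -0.20. Higher estimates were found at 4 of the 6 tested leukocyte markers (median 0.17) and 3 of the 5 endothelium markers (median 0.06). The part of these markers in the genotype differences was not tested.

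Cpt1a read 1368, 2154, 2719 and 1316 in trained wildtype mice and 2246, 3062, 3299 and 2872 in trained plakoglobin (+/-) mice. The groups overlapped through wildtype replicate 3. The log2 difference was 0.66 (SE 0.28, unadjusted p = 0.0402, adjusted p = 0.99996, limma). In the untrained pair the plakoglobin (+/-) mouse was also the higher, with 3817.0 against 2633.

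Elsewhere in the shuttle, Slc25a20 differed by -0.54 (SE 0.27) and Mlycd by -0.39 (SE 0.20), both with an unadjusted p of 0.0742. The Slc25a20 difference was -0.28 without trained wildtype replicate 1 and -0.47 without the 3 arrays of high GAPDH ratio, and the gene's further probe set gave 0.04. That of Mlycd was -0.26 without trained plakoglobin (+/-) replicate 4. Hsd17b4 read 8519.5 to 9599 in trained wildtype and 7102 to 8457.5 in trained plakoglobin (+/-) mice. These ranges, of its brightest probe set, did not overlap, but the log2 difference was only -0.20 (SE 0.15). The further probe set of Hsd17b4 read 6753 to 7526 in trained wildtype and 4414.5 to 8658 in trained plakoglobin (+/-) mice, which overlap. It gave -0.17 (SE 0.22). The brightest Hsd17b4 probe set and the intermediate Acaa2 one were the 2 of 50 without overlap, against 1.6% of all probe sets. The uptake genes Fabp3 (0.02), Slc27a1 (-0.09) and Cd36 (-0.15), the trifunctional subunits Hadha (0.07) and Hadhb (0.05) and the flavoprotein subunits Etfa (-0.0065) and Etfb (0.02) all had estimates within their SE.

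**Figure D3:**
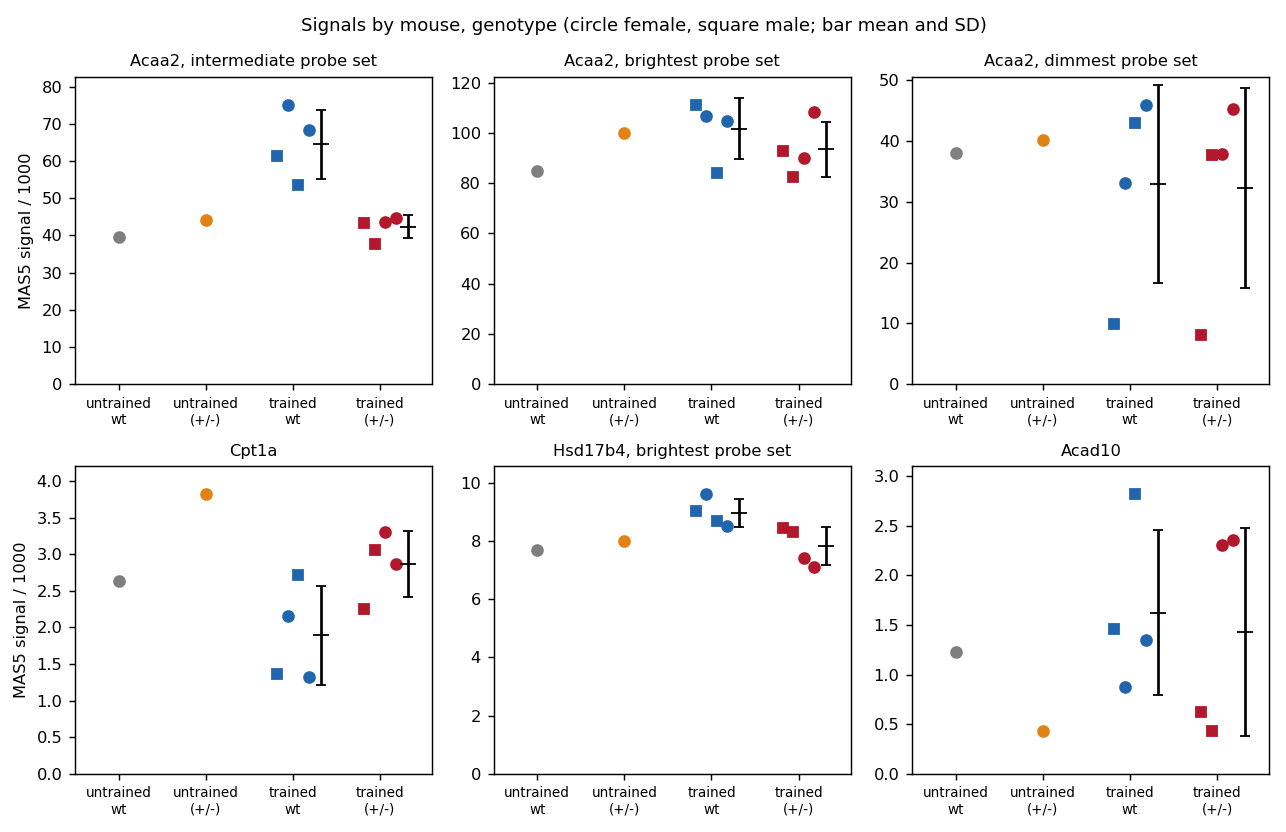
Signals of each mouse (MAS5 signal divided by 1000), by group, for the 3 probe sets of Acaa2 and for Cpt1a, Hsd17b4 and Acad10; circles are females, squares males, and black bars the mean and SD of the 4 mice of a trained group. Of the 6 panels, those of the intermediate Acaa2 probe set and the brightest Hsd17b4 probe set separate the trained genotypes. At the dimmest Acaa2 probe set 2 males, at 8155 and 9908, stand far below the rest. The plakoglobin (+/-) males and females lie apart at Acad10.

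Of the other pathway genes and regulators, none of the 20 tested in each list passed in the genotype comparison. The 4 of lowest p were the triglyceride lipase Pnpla2 (0.48, SE 0.20, unadjusted p = 0.0390), the acyl-CoA binding protein Dbi (-0.35, SE 0.15, unadjusted p = 0.0415), the peroxisomal oxidase Acox3 (1.28, SE 0.61, unadjusted p = 0.0624) and Ucp3 (0.56, SE 0.29, unadjusted p = 0.0823), each with an adjusted p of 0.99996 in limma.

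Whether the training difference itself depended on genotype was tested with an interaction term, in which each untrained group is 1 mouse assumed to vary like the others. No probe set passed, 0% of all, and 3.2% of all had an unadjusted p below 0.05. Of the 32 genes, 25 had a more negative training estimate in plakoglobin (+/-) than in wildtype mice, with a median of -0.15, against 50.0% of all genes. The 25 share the same 2 untrained mice. Between those 2, the plakoglobin (+/-) mouse was higher at 27 of the 32 genes, by a median log2 difference of 0.12, where 50.5% of all genes were higher. The range over the 32 ran from -1.50 at Acad10 to 1.34 at Acaa1a.

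A pair of probe sets had an unadjusted p below 0.05 in limma, 4% of the 50. They were the intermediate one of Acaa2 (-0.76, SE 0.29, unadjusted p = 0.0271) and the brightest of Acaa1a (-1.26, SE 0.54, unadjusted p = 0.0435), each with an adjusted p of 0.999984 in limma. Acaa1a read 3076 in the untrained wildtype and 7784.5 in the untrained plakoglobin (+/-) mouse. Trained wildtype mice read 2979 to 5513 and trained plakoglobin (+/-) mice 3194 to 5968, so the untrained plakoglobin (+/-) mouse alone stood above all others. Of the other pathway genes and regulators, the lowest p values were those of Rxra (2.30), Dbi (-0.77), Rxrg (-0.69) and Acot13 (-0.57), with adjusted p values of 0.857 to 0.999984 (limma). Rxra, a nuclear receptor that pairs with PPAR, read 436.6 in the untrained plakoglobin (+/-) mouse and 2165 to 3623 on the other 9 arrays.

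Trained males and females were compared in the same fit as genotype. None of the 50 probe sets passed, while 7 of all probe sets did, 0.0516%. Of the 50, 4 had an unadjusted p below 0.05 in limma, against 8.82% of all in either direction. They were the brightest of Decr1, the dimmest of Cd36 and those of Eci1 and Hadha, all lower in males. Over the 32 genes 18 had lower estimates in males, with a median of -0.01, against 45.5% lower and a median of 0.034 over all genes. Of the 32, 13 were lower without the 3 arrays of high GAPDH ratio, with a median of 0.04. All 7 ventricular cardiomyocyte markers had lower estimates in males, with a median of -0.15, and all 6 tested leukocyte markers higher ones, with a median of 0.29. Their part in the differences below was not tested.

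Decr1 read 27022, 28959, 29304 and 33267 in males and 37150, 37433, 41580.5 and 40065 in females. Every male lay below every female. The log2 difference was -0.40 (SE 0.13, unadjusted p = 0.0139, adjusted p = 0.509, limma) and -0.36 without the 3 arrays. The further Decr1 probe set read 8599 to 10126 in males and 9517 to 13773 in females, which overlap. It gave -0.26 (SE 0.17, unadjusted p = 0.146, limma). The dimmest probe set of Cd36 read 12731.5, 10259, 13583 and 16266 in males and 23613, 26067, 17015 and 18694 in females, without overlap.

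Its log2 difference was -0.69 (SE 0.20, unadjusted p = 0.00714, adjusted p = 0.496, limma) and -0.45 without the 3 arrays, while the brightest Cd36 probe set gave 0.16. The brightest Decr1 probe set and this Cd36 probe set were the 2 of 50 without overlap between the sexes, against 5.89% of all. Eci1 read 36590, 33678, 43081 and 53869 in males and 67861, 52396, 56190 and 53538 in females, and trained wildtype replicate 3 was the male within the female range. It differed by -0.48 (SE 0.17, unadjusted p = 0.0215, adjusted p = 0.509, limma), and by -0.19 without the 3 arrays. Hadha differed by -1.27 (SE 0.55, unadjusted p = 0.0423), and by -0.09 without them.

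Among the other pathway genes and regulators, Acsl6 was higher in estimate in males (0.64, SE 0.21), as was the lipid droplet protein Plin2 (0.56, SE 0.22). The coactivator Ppargc1a (-0.54, SE 0.21) and the receptor Esrrb (-0.70, SE 0.32) had lower estimates in males. Without the 3 arrays of high GAPDH ratio these differences were 0.66 for Acsl6, 0.29 for Plin2, -0.25 for Ppargc1a and -0.15 for Esrrb. None of these 4 passed, with adjusted p values of 0.509 to 0.569 (limma).

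The genotype difference was also compared between the sexes, with 2 mice per genotype and sex. No probe set passed, 0% of all, and 2.66% of all had an unadjusted p below 0.05. Acad10 was the 1 of 50 members with such a p. It read 620.6 and 431.0 in plakoglobin (+/-) males and 1457 and 2818 in wildtype males, so wildtype was higher. In females the order was the opposite, with 2308 and 2357 in plakoglobin (+/-) and 878.6 and 1346 in wildtype.

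The genotype difference of Acad10 in males minus that in females was -3.07 on the log2 scale (SE 0.61, unadjusted p = 0.000802, adjusted p = 0.999758, limma), and it ranged from -3.55 to -2.60 with 1 mouse left out. The untrained females, at 1223 for wildtype and 431.1 for plakoglobin (+/-), did not repeat the order of the trained females. Of the other pathway genes and regulators, the lowest p values of this term were those of Nrf1 (-1.56), Acox3 (2.45), Abcd3 (1.08) and Pnpla2 (-0.62), each with an adjusted p of 0.999758 (limma).

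The arrays of 2 trained males, wildtype replicate 1 and plakoglobin (+/-) replicate 1, had both the GAPDH and the actin ratio above 2, with actin ratios of 3.05 and 2.65 against 0.932 to 1.29 on the other 8. At 10 of the 50 probe sets both of these arrays lay below the other 8, against 11.3% of all probe sets, and at 8 both lay above, against 10.4% of all. The 10 were those of Hadha, Acaa2 (its dimmest), Acads, Echs1, Slc27a1, Cd36 (its dimmest), Eci1, Decr1 (its brightest), Crat (its brightest) and Etfb. The 8 were those of Cpt2 (its brightest), Etfa, Acadvl and Eci2, the intermediate one of Acat1, and further probe sets of Hsd17b10, Hsd17b4 and Crat.

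The separation was widest at Hadha. It read 9491 and 14252 on these 2 arrays and 52729 to 73984 on the other 8, so the others were 5.36-fold higher by geometric means. Hadhb, the partner subunit, read 143258 and 142891 on the 2 arrays, within the range of the other 8, and the ratio of the others to the pair was 0.985.

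The dimmest Acaa2 probe set read 9908 and 8155 on the pair against 33051 to 45875 on the other 8, which were 4.44-fold higher, while the ratios at the brightest and the intermediate one were 0.933 and 0.960. The other 8 arrays were 2.03-fold higher at Acads and 1.97-fold higher at Echs1. In the opposite direction, the pair was 1.59-fold higher at the intermediate Acat1 probe set and 1.45-fold higher at Cpt2. Trained wildtype replicate 2, with the highest GAPDH ratio but an actin ratio of 1.29, read 68432 at Hadha, 11509 at Acads and 35475 at Echs1, above both arrays of the pair each time. The part of RNA or labelling quality in the values of the pair was not tested.

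**Figure D4:**
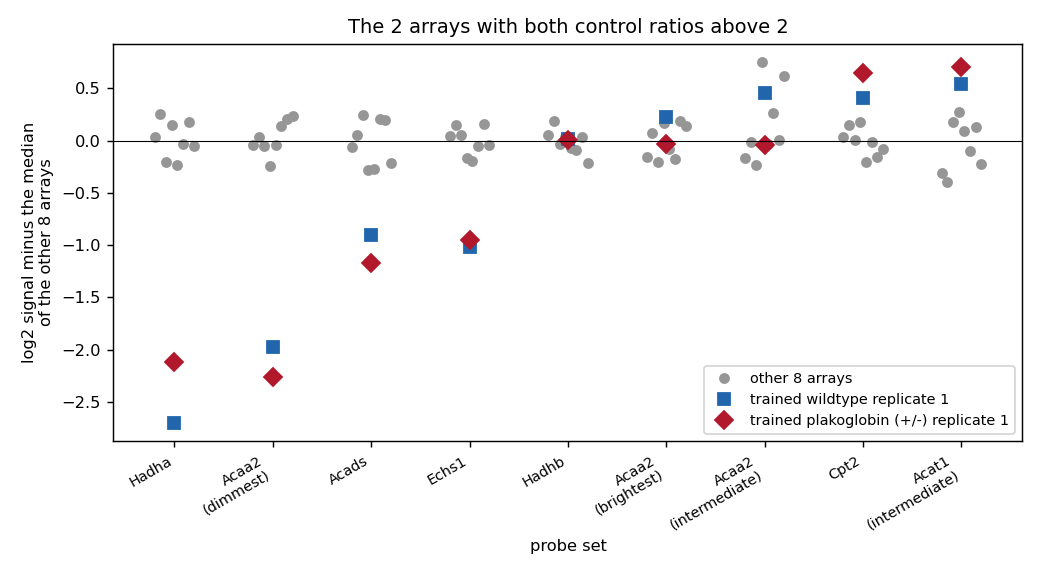
Log2 signal on each array minus the median of the other 8 arrays for 9 probe sets; grey points are those 8 arrays, and the square and the diamond are the 2 arrays with both control ratios above 2. The pair lies far below the grey points at Hadha and 1 Acaa2 probe set, within them at Hadhb, and above them at Cpt2 and the intermediate Acat1 probe set.

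The SD of the log2 signal over the 8 trained mice had a median of 0.277 over the 32 genes and of 0.353 over all genes. It was lowest at Hadhb (0.0843), Acat1 (0.105), Ech1 (0.116) and Fabp3 (0.118), and highest at Hadha (1.12) and Acad10 (0.977). Hadha and Hadhb encode subunits of 1 complex in a fixed proportion. By representing probe sets, their signals were nonetheless the most and the least variable of the 32. At the further Hadhb probe set the SD of the linear signal was 15.6% of the mean in trained mice, against 5.67% at the brightest. The SD of Hadha includes the 2 arrays with both control ratios above 2. They read 9491 and 14252 at Hadha, against 52729 to 73984 on the other 8 arrays.

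Hadha and Hadhb lie head to head on chromosome 5, and in the RefSeq annotation of mouse build GRCm38.p6 their starts are 273 bases apart, so their upstream windows overlap. That shared stretch is shown because the representing probe sets of the 2 genes differed so widely in spread. That spread includes the 2 arrays with both control ratios above 2. The part of the shared stretch in that spread was not tested. The stretch has a GC content of 57.0% and 15 CG dinucleotides.
Hadha and Hadhb, chr5:30155003-30155230, plus strand: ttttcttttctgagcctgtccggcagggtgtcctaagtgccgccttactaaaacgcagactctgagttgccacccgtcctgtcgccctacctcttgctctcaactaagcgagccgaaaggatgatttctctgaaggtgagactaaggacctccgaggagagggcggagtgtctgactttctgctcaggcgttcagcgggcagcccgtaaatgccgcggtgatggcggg

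The 250 bases before the start are also shown, on the gene's strand, for Ech1, Fabp3 and Hadh, the 3 genes with an unadjusted p below 0.05 and lower signals in trained mice, and for Acadm, in which the letters AGGTCA occur on the opposite strand. Capitals mark that match, and the first 3 sequences hold none.
Ech1, chr7:28825088-28825337, plus strand: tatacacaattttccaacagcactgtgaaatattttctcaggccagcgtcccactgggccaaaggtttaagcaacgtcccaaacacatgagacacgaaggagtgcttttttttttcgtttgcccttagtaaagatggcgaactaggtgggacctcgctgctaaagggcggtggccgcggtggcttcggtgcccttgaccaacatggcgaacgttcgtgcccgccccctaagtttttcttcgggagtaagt
Fabp3, chr4:130308488-130308737, plus strand: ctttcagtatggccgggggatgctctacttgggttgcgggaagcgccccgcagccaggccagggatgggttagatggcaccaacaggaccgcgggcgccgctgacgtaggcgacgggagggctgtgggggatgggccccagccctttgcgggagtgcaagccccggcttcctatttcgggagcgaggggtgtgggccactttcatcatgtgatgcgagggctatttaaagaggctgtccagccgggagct
Hadh, chr3:131272102-131272351, minus strand: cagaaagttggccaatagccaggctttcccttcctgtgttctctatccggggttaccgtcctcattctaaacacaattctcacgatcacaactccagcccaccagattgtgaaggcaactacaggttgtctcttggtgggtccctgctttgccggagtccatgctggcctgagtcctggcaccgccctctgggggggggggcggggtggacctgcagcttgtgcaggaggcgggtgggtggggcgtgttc
Acadm, chr3:153944644-153944893, minus strand: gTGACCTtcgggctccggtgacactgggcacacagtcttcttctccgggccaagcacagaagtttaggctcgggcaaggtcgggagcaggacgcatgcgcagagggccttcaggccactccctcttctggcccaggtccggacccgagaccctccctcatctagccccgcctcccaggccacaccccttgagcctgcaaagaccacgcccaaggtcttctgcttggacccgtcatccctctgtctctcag

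Windows from 250 bases before to 50 after the start were given for 29 of the 36 symbols, in 32 windows. The letters AGGTCA were found on either strand in 5 of the 32, or 15.6%, those of Acadm, Cd36, Echs1, Acadvl and Cpt1a, and in 16.3% of all 32851 windows of the same length. The match began 249 bases before the start at Acadm, 228 at Cd36, 94 at Cpt1a, 87 at Acadvl and 83 at Echs1. The longer TCAAGGTCA, which contains AGGTCA, was in none of the 32 and in 0.423% of all, and the direct repeat of AGGTCA with 1 base of any kind between the copies was in none and in 0.0396%. A match is a description of the letters in these windows. Of the 5 genes with a match, the training estimate was above 0 at Acadm and below 0 at the other 4.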

How the data were processed

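Right ventricles of 10 mice gave total RNA, which was extracted with TRIzol, copied into biotin-labelled cRNA from an oligo(dT) primer and hybridised to 1 array per mouse, per the labels' protocols. The deposited values are linear intensity signals made by the authors with MAS5 5.0, per the submitters' processing notes, and each array appears scaled to a common level, since the trimmed mean signal, with 2% of values dropped at either end, was nearly equal on all arrays. They carry no detection calls and no genome build, and the number of arrays limits the precision.

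Values under 104, which is the 10th percentile, were set to that floor before log2 was taken. After removal of 64 control probe sets, 13576 probe sets at or above the 40th percentile of mean log2 signal were tested with limma 3.58.1 in R 4.3.3 (lmFit, eBayes with an intensity trend, two-sided, Benjamini-Hochberg). Training was fitted over 10 mice with genotype and sex as terms, genotype and sex over the 8 trained mice, and interactions in further fits. Symbols came from the platform annotation (20393 probe sets with 1 symbol, 691 with several, 1606 not listed), and promoter windows from RefSeq. Replicate numbers follow the order of the records and are only names. Of the fits, that of training was tested on simulated data.

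The genes and lists were chosen with earlier results of these data known. Every tested member gene is given with its log2 difference in the training comparison. Signals, by mouse or as ranges, are given for those with an unadjusted p below 0.05. Of the other pathway and regulator genes the 4 of lowest p per comparison are named. Genes named for groups that do not overlap, or for the arrays of high control ratio, were chosen after their values were seen. Alternatives changed the normalization (quantile), the floor (25th percentile, or none with a pseudocount of 1), the filter (60th percentile, or none), the variance model (no trend, or a robust trend) and the samples or terms: no sex term, females only, all 10 mice in 1 fit, all probe sets of a gene, the fits without the 3 arrays of high GAPDH ratio, and the fits with each mouse left out.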

Additional observations from a re-analysis of the deposited data

Results flagged for a closer look

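Signals of each of the 50 tested member probe sets were checked in both trained groups of 4 mice, 100 checks in all. Each sought a mouse whose gap to the nearest other, as a share of the group's range, exceeded the critical value of Dixon's outlier test. There were 5 such values, 5% of the checks, and chance gives about 1 in 20. In trained wildtype replicate 1, Hadha read 9491.1 against 59593 to 68432 in the other 3. In trained plakoglobin (+/-) replicate 1, Acadvl read 81207.8 against 68755 to 70765, and the intermediate Acat1 probe set read 41970.1 against 27465 to 29077. These 2 mice are the ones with both control ratios above 2. In trained plakoglobin (+/-) replicate 2, the dimmer Hadhb probe set read 17781.4 against 28834.5 to 30432, while the brighter one gave no such gap. In trained plakoglobin (+/-) replicate 3, the dimmest Hadh probe set read 2548.8 against 957.6 to 1024.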

How the results depend on the processing

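None of the 922 alternative values of 49 results on the genes of fatty acid oxidation passed the threshold, and the lowest adjusted p was 0.0691. Of these values, 906 kept their direction and 16, of 10 results, turned. Without a sex term, Cpt2 (0.0095), Acadm (-0.028) and Etfa (0.0083) turned in the training comparison, and without the 3 arrays of high GAPDH ratio Acad9 (-0.12) and Hsd17b4 (-0.019) did. With 1 mouse left out, the ranges that crossed 0 were those of Slc27a1 (-0.45 to 0.10), Acsl4 (-0.32 to 0.041), Acadm (-0.12 to 0.22), Acad9 (-0.11 to 0.27), Acaa2 (-0.031 to 0.33), Acat1 (-0.24 to 0.18), Acaa1a (-1.12 to 0.14) and Hsd17b4 (-0.084 to 0.18). The median over the genes ranged from -0.17 to -0.038 there. Of 34 training values, those turned included, 21 moved by over 1.5 times with an untrained mouse left out, 18 with a trained mouse left out, 17 without a sex term, 10 after quantile normalization and 8 without the 3 arrays, among them Slc27a1 (-0.30), Acsl4 (-0.30), Cpt2 (-0.24) and Etfa (-0.24).

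The count of all probe sets past the threshold for training was 225 without the 3 arrays and 10 to 87 with 1 mouse left out, with 10 and 34 without the untrained plakoglobin (+/-) and wildtype mouse, 51 and 53 without trained plakoglobin (+/-) replicates 3 and 4, and 50.0 without trained wildtype replicate 4. For sex it was 13 after quantile normalization, 15 with a floor at the 25th percentile, 2 with no filter, 11 with a filter at the 60th percentile, 1 without the trend, 17 without the 3 arrays and 1 to 12 with 1 mouse left out. For genotype by training it was 1 after quantile normalization, 66 with no filter and 0 to 1 with 1 mouse left out. The cause was not tested. No paired analysis was possible because the labels name no littermate pairs and the replicate numbers carry no pairing. The interaction of genotype and training without an untrained mouse could not be fitted.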
